A study of Mus musculus with 6 samples.

Results

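Complement transcripts were examined in sorted stromal cells of the mouse colon: the activating components C2, C3, C4b, Cfb and Cfd and the regulators Serping1, Cd55 and Cd59a. These 8 genes were chosen by name among 24346 genes in the tables, by a rule that uses no measured value, although earlier results of these data were known. RNA from 6 libraries was sequenced, each from a different mouse. The Pdgfra-cre group held 3 mice (numbers 13, 23 and 25) that carried Pdgfra cre and Il10ra flox/flox, so that cre recombinase was driven by Pdgfra, a gene of fibroblasts. The floxed group held 3 mice (numbers 8, 9 and 43) with Il10ra flox/flox and no cre listed. The product of Il10ra is the receptor chain that binds interleukin-10. Each of the 6 mice was 12 weeks of age and was given 1% DSS (dextran sulfate sodium), which injures the colonic epithelium, so no uninjured colon was compared. Cells were sorted as live Podoplanin-positive cells that lacked CD45, CD31 and EpCAM.

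Complement is a cascade of secreted proteases and their substrates. The classical and lectin pathways cleave C4 and C2 to form a convertase that splits C3, and the alternative pathway builds another convertase from C3 and factor B after factor D has cleaved factor B. C3 fragments tag surfaces and attract leukocytes, and the terminal components form a pore. Host cells limit these steps with soluble inhibitors and with membrane proteins, and stromal cells of inflamed tissue are a known local source of several components besides the liver.

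The libraries had similar numbers of detected genes and held stromal transcripts. Between 11188 and 11358 genes per library had an FPKM of at least 1. FPKM counts fragments scaled by transcript length and by a size factor of the library, and how that factor was set is not given. The sources used here give no read totals. Each of the other 5 libraries was set against floxed library 8 over genes above 0 and below 0.3 FPKM in both. The most frequent ratio of a gene's values was 0.963 to 1.13, held by 80 to 130 of the 449 to 704 genes compared. By this rough guide, scaled depth differed little. Podoplanin (Pdpn) lay between 78.3 and 124 FPKM and Ptprc, Pecam1 and Epcam, which encode the 3 excluded antigens, did not exceed 1.11 FPKM. Il10ra was listed at 0 in all 3 Pdgfra-cre libraries and in floxed libraries 8 and 9, and was 0.417 FPKM in floxed library 43, so its loss could not be seen at this level. Pdgfra-cre library 23 stood apart, with correlations across tested genes of 0.936 to 0.960 with the others, against 0.959 to 0.976 among the remaining 5. Results are therefore also given without it.

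Of the 8 members 7 were expressed in every library, several at very high levels. By mean FPKM over the 6 libraries, Serping1 ranked 8 and C3 ranked 20 among all 24346 genes, followed by C4b at 91, Cfb at 113, Cd55 at 260, C2 at 2186 and Cd59a at 4690. FPKM is scaled for transcript length, so levels can be set side by side. Serping1 was the highest member in 5 of the libraries and C3 was the highest in Pdgfra-cre library 23. Cfb and C4b exchanged places between libraries, with Cfb above C4b in Pdgfra-cre libraries 13 and 23 and below it in the other 4, so their order was not fixed. Cd55, C2 and Cd59a followed in that order in every library, except that Cd55 was above Cfb in floxed library 43.

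**Figure D1:**
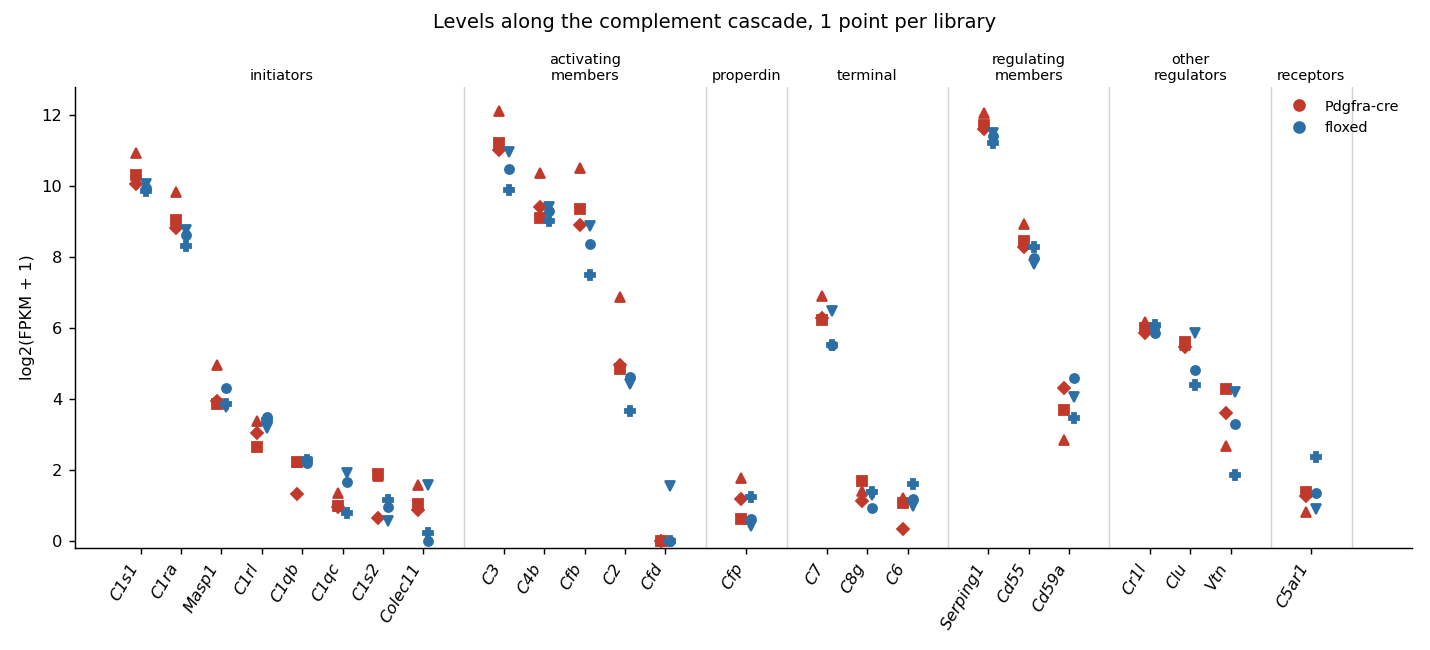
Levels along the cascade: the y axis is log2(FPKM + 1), each point is a library (red, Pdgfra-cre, left of blue, floxed; shapes as in the plot of members by library), and genes are grouped by their step. Serping1, C3, C1s1 and C4b are the most abundant, while Cfd is listed at 0 in 5 of 6 libraries.

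C3, the central component of all pathways, was higher in the Pdgfra-cre group. It had 2380, 4382 and 2069 FPKM in Pdgfra-cre libraries 13, 23 and 25, against 1434, 2001 and 947 FPKM in floxed libraries 8, 9 and 43. All 3 Pdgfra-cre values lay above all 3 floxed values, although library 25 exceeded floxed library 9 by little. The log2 fold change, on the log2(FPKM + 1) scale used for every fold change here, was 1.00 ± 0.32 (SE; 95% interval 0.29 to 1.71), and it did not pass limma's test adjusted over all 11429 tested genes (adjusted p = 0.277). That threshold, an adjusted p of 0.05, was passed by 0% of the tested genes, while 11% had an unadjusted p under 0.05. Without library 23 the C3 log2 fold change was 0.67 ± 0.26.

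Cfb, which encodes factor B, the protease of the alternative pathway convertase, showed the same order of the 6 libraries as C3. It had 656, 1468 and 479 FPKM in Pdgfra-cre libraries 13, 23 and 25, against 331, 471 and 181 FPKM in floxed libraries 8, 9 and 43. The groups did not overlap, but Pdgfra-cre library 25 and floxed library 9 were nearly level. Its log2 fold change was 1.34 ± 0.42 (SE; limma, adjusted p = 0.273), and 0.88 ± 0.33 without library 23.

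C2, the protease of the classical and lectin convertase, lies beside Cfb on chromosome 17 (34862604 to 34898265 for C2 and 34856374 to 34862518 for Cfb, mm10, minus strand). It had 28.0, 117 and 30.03 FPKM in Pdgfra-cre libraries 13, 23 and 25, against 23.8, 20.4 and 11.6 FPKM in floxed libraries 8, 9 and 43. The groups did not overlap, and library 23 alone held the large excess. Its log2 fold change of 1.33 ± 0.49 (SE; limma, adjusted p = 0.346) was 0.67 ± 0.26 without library 23. GENCODE also lists Gm20547, a gene whose exons overlap those of both C2 and Cfb, and it has no row in the tables. Zbtb12, which overlaps C2 as well, did not exceed 0.194 FPKM. The library kit does not mark strand, so reads of overlapping genes could not be told apart.

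C4b, whose product is the other part of that convertase, exceeded the floxed range only in Pdgfra-cre library 23. It had 548, 1319 and 678 FPKM in Pdgfra-cre libraries 13, 23 and 25, against 626, 679 and 515 FPKM in floxed libraries 8, 9 and 43. Libraries 13 and 25 lay within the floxed range. This gave a log2 fold change of 0.39 ± 0.28 (SE; 95% interval -0.24 to 1.01; limma, adjusted p = 0.686), and 0.02 ± 0.15 without library 23. It was 0.65 without Pdgfra-cre library 13 and 0.25 after quantile normalization. Its close copy C4a did not exceed 0.196 FPKM, but reads of the pair may have been divided between them.

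Cfd, which encodes factor D, also called adipsin and known as a product of adipocytes, was listed at 0 in all 3 Pdgfra-cre libraries and in floxed libraries 8 and 43. Only floxed library 9 had a value, 1.96 FPKM. Cfd therefore did not reach 1 FPKM in at least 3 libraries, the filter for testing, and was not tested. Of 8 adipocyte markers, 7 were listed at 0 in all libraries, among them the defining marker Adipoq, and the exception was Fabp4 (0.241 to 9.36 FPKM). The substrate of factor D, encoded by Cfb, and its partner C3 were abundant in the same libraries.

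**Figure D2:**
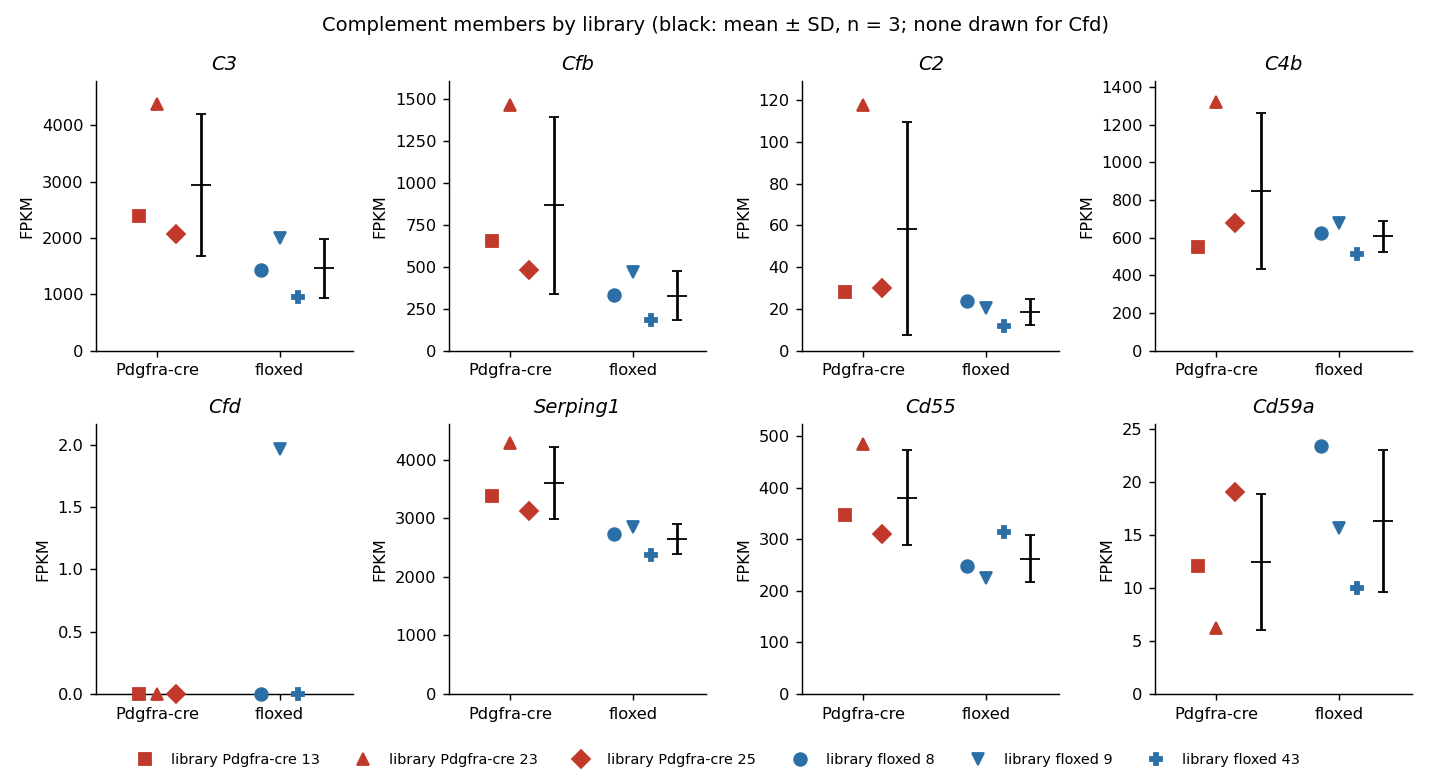
FPKM (y axis, linear from 0) of each member by library, with Pdgfra-cre left of floxed and the mean ± SD of 3 libraries in black (none drawn for Cfd). Pdgfra-cre library 23 is the highest for C3, Cfb, C2, C4b, Serping1 and Cd55 and the lowest for Cd59a.

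Serping1, which encodes C1 inhibitor, a serpin that inactivates the proteases C1r and C1s, was the most abundant regulator. It had 3389, 4291 and 3118 FPKM in Pdgfra-cre libraries 13, 23 and 25, against 2725, 2853 and 2369 FPKM in floxed libraries 8, 9 and 43. The groups did not overlap and the order of the libraries was that of C3 and Cfb, an order shared by 0.639% of tested genes. The log2 fold change was 0.43 ± 0.15 (SE; limma, adjusted p = 0.311), 0.30 ± 0.13 without library 23 and 0.25 after quantile normalization.

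Cd55, or decay-accelerating factor, is a membrane protein that breaks up the C3 convertases. It had 346, 485 and 310 FPKM in Pdgfra-cre libraries 13, 23 and 25, against 248, 224 and 313 FPKM in floxed libraries 8, 9 and 43. Floxed library 43, the lowest of all for C3 and Cfb, exceeded Pdgfra-cre library 25 here, so the groups overlapped. The log2 fold change was 0.52 ± 0.18 (SE; limma, adjusted p = 0.320), and 0.34 ± 0.15 without library 23. Its exons overlap those of Gm16083, which has no row in the tables, and without strand their reads could not be told apart. The related gene Cd55b did not exceed 0.185 FPKM.

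Cd59a, a membrane inhibitor of pore assembly, was the only tested member with a log2 fold change below 0. It had 12.1, 6.23 and 19.0 FPKM in Pdgfra-cre libraries 13, 23 and 25, against 23.3, 15.7 and 9.99 FPKM in floxed libraries 8, 9 and 43. The groups interleaved, with the lowest value in library 23 and the highest in floxed library 8. Its log2 fold change was -0.41 ± 0.38 (SE; 95% interval -1.27 to 0.45; limma, adjusted p = 0.776). It was -0.02 without library 23 and -0.13 without floxed library 8, against -0.70 without floxed library 43 and -0.76 without Pdgfra-cre library 25. The neighbouring copy Cd59b lay between 0 and 1.23 FPKM.

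Read as classes, the activating members had the higher median fold change, but the classes were not apart. The mean log2(FPKM + 1) of the 4 tested activating members minus that of the 3 regulators was 0.68, 2.02 and 0.50 in Pdgfra-cre libraries 13, 23 and 25, against 0.20, 0.63 and -0.14 in floxed libraries 8, 9 and 43. Floxed library 9 lay above Pdgfra-cre library 25, so the groups overlapped, with a within-group SD of 0.65. The activating member C4b, at 0.39, also had a smaller log2 fold change than the regulators Serping1 and Cd55. The log2 fold change was above 0 in all 4 tested activating members, the median was 1.17, and 3 of them did not overlap between groups on the higher side. Among the 3 regulators 2 were above 0, the median was 0.43, and 1 did not overlap on the higher side. Over all tested genes 50.3% were above 0, the median was 0.0012, and the groups did not overlap in 8.07% on the higher side and 8.29% on the lower. After rescaling to TPM, which gives every library the same sum, 420 genes had an unadjusted p under 0.05 with higher values and 874 with lower ones, against 625 and 628 with the deposited FPKM. An unadjusted p under 0.05 with higher values was reached by 3 of the 4 activating members and 2 of the 3 regulators, against 5.47% of tested genes, and 0 of them passed after adjustment. The difference of the class medians was 0.73. It was 0.37 without Pdgfra-cre library 23 (0.67 for activating members and 0.30 for regulators), and 0.49 without floxed library 43. Library 23 was the highest for each of the members that did not overlap (C2, C3, Cfb and Serping1). Leaving it out could not make them overlap, so their non-overlap without it adds nothing. Of all tested genes, 12.6% did not overlap on the higher side without library 23. In that fit 4 of the 7 tested members, the same 4, had an unadjusted p under 0.05 (limma), against 9.21% of tested genes in either direction. Cd55, C4b and Cd59a did not (limma, unadjusted p = 0.054, 0.914 and 0.941). Non-overlap in the same libraries favours a small p, so for these 4 the p-values add little.

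**Figure D3:**
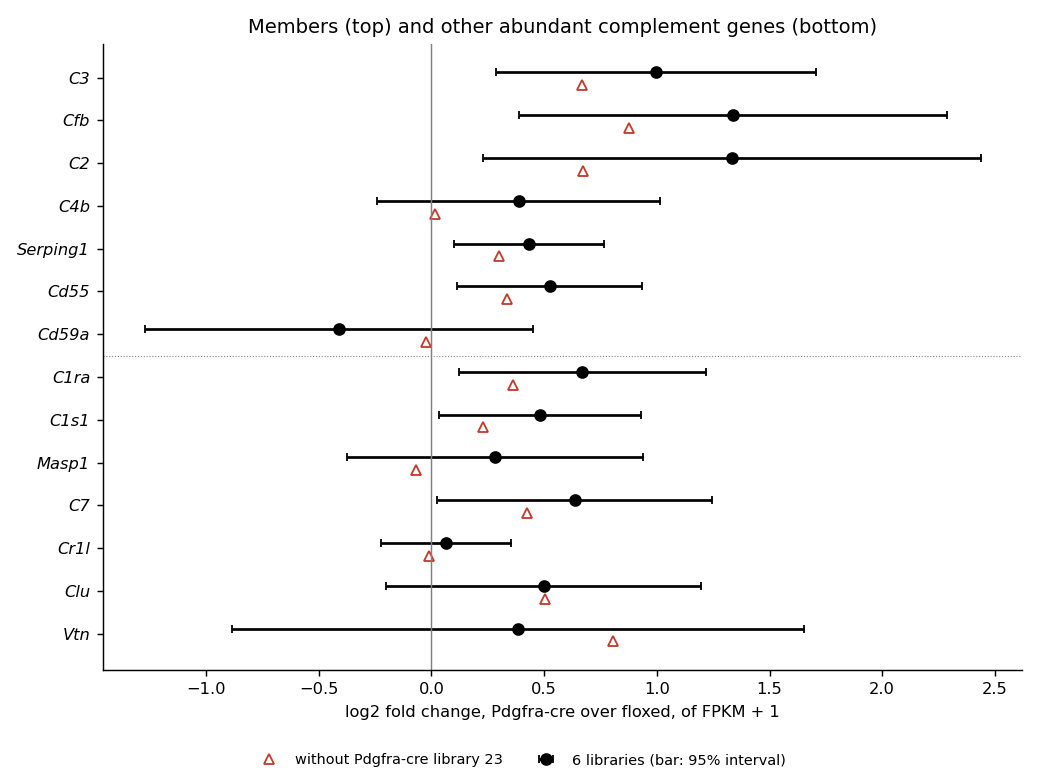
Log2 fold change of FPKM + 1, Pdgfra-cre over floxed (x axis), for tested members (above the dotted line) and other complement genes with a mean of at least 10 FPKM (below it). Black points with bars are estimates from 6 libraries with 95% intervals, and open triangles are estimates without Pdgfra-cre library 23, where C2 moves to 0.67 and C4b to 0.02.

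Inside single libraries the balance of activating genes and regulators depended on which regulator was taken. The ratio of C3 to Cr1l, a rodent membrane regulator also called Crry, was 37.9, 62.0 and 36.0 in Pdgfra-cre libraries 13, 23 and 25, against 25.3, 34.2 and 14.2 in floxed libraries 8, 9 and 43. The ratio of Cfb to Cr1l was 10.4, 20.8 and 8.33 in the same Pdgfra-cre libraries, against 5.84, 8.04 and 2.71 in the floxed ones. Neither ratio overlapped between groups, although Pdgfra-cre library 25 and floxed library 9 were nearly level in both. In contrast, the ratio of C3 to Cd55 was 6.66 to 9.04 in Pdgfra-cre and 3.02 to 8.91 in floxed libraries, and that of C3 to Serping1 was 0.664 to 1.02 and 0.400 to 0.701 in the same order of groups, and both overlapped. The ratio of Cfb to Cd55 was 1.89, 3.03 and 1.54 in Pdgfra-cre libraries 13, 23 and 25, and floxed library 9 lay above libraries 13 and 25. Of 12 ratios computed, 10 overlapped, among them C3 over Cd59a and Cfb, C4b and C2 over Serping1. Those 10 also hold Cd55 over Cd59a, both regulators, and Cfb over C2, both activating, which do not set the classes against each other. The 2 that did not overlap were both over Cr1l, which is no member and was nearly level between groups. These ratios were chosen with earlier results known and carry no test.

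**Figure D4:**
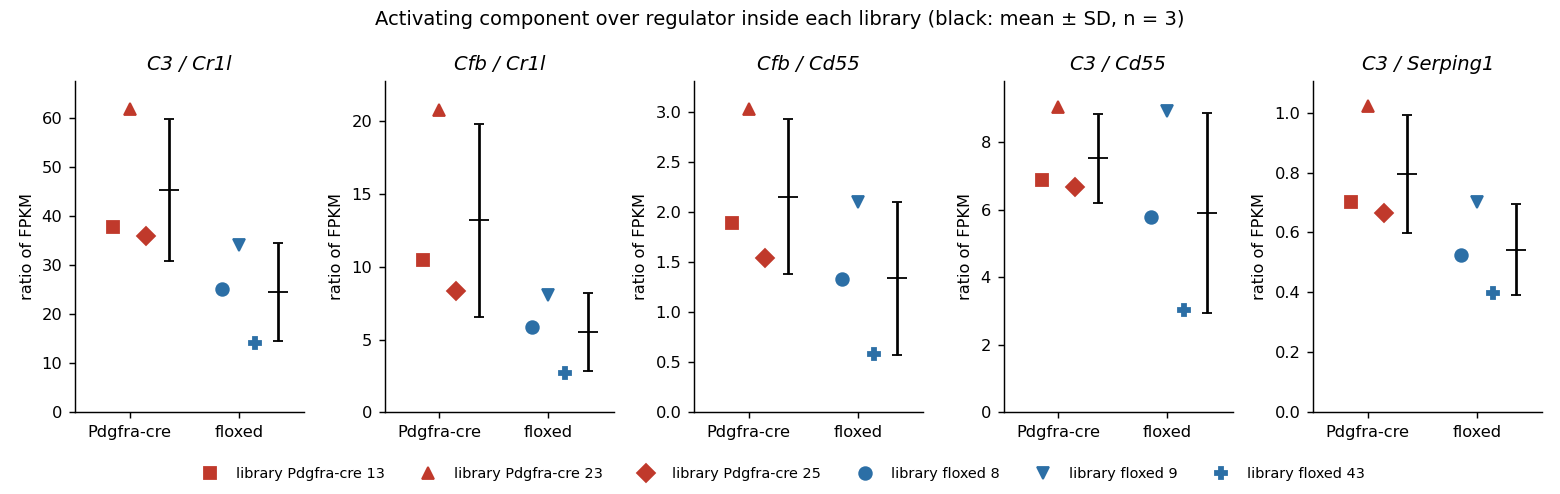
Ratio of the FPKM of an activating component to that of a regulator (y axis, linear from 0) in each library, with Pdgfra-cre left of floxed and the mean ± SD of 3 libraries in black. The groups are apart for C3 and Cfb over Cr1l, and overlap for Cfb and C3 over Cd55 and for C3 over Serping1.

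The rest of the cascade was expressed in part. Of 52 other complement gene symbols in the lists 50 were in the tables and 16 were tested. In every library 27 stayed below 1 FPKM, and 9 of these were listed at 0. None of the 16 passed limma's adjusted test, and 3 had an unadjusted p under 0.05, all higher in Pdgfra-cre, against 5.47% of all tested genes. Their log2 fold changes were above 0 in 11 and below 0 in 5, with a median of 0.33, and 0.10 over the 12 genes tested without library 23.

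Among the initiators, the C1 proteases were abundant and the recognition chains were not. C1ra, which encodes C1r, had 522, 916 and 448 FPKM in Pdgfra-cre libraries 13, 23 and 25, against 391, 434 and 314 FPKM in floxed libraries 8, 9 and 43. C1s1, which encodes C1s, had 1262, 1962 and 1073 FPKM, against 982, 1061 and 936 FPKM, in the same libraries. Both were highest in library 23 and neither overlapped between groups, with log2 fold changes of 0.67 ± 0.24 and 0.48 ± 0.20 (SE; limma, adjusted p = 0.342 and 0.404), or 0.36 and 0.23 without library 23. They were the only 2 of the 16 tested other complement genes that did not overlap on the higher side, a count near the 8.07% of all tested genes. The exons of C1s1 overlap those of Gm16567, which has no row in the tables, so its reads could not be told apart by strand. C1qa, C1qb and C1qc, which macrophages are known to supply, did not exceed 3.93 FPKM. The lectin pathway protease gene Masp1 lay between 13.6 and 30.4 FPKM in Pdgfra-cre and between 12.6 and 19.0 FPKM in floxed libraries. Mbl1, Mbl2, Fcna and Fcnb, which encode lectin pathway recognition proteins, were listed at 0 throughout. The near-copies C1rb and C1s2 stayed at or below 2.70 FPKM.

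Of the terminal components, only C7 was abundant. It had 74.1, 118 and 76.9 FPKM in Pdgfra-cre libraries 13, 23 and 25, against 44.7, 87.6 and 44.7 FPKM in floxed libraries 8, 9 and 43. Floxed library 9 lay above Pdgfra-cre libraries 13 and 25, and the log2 fold change was 0.64 ± 0.27 (SE; limma, adjusted p = 0.429), or 0.42 ± 0.26 without library 23. C8a, C8b and C9 were listed at 0 in all 6 libraries.

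Among the other regulators, Cr1l lay close together in both groups. It averaged 63.7 ± 6.63 FPKM in Pdgfra-cre and 60.7 ± 5.41 FPKM in floxed libraries (SD, n = 3 each), with a log2 fold change of 0.07 (95% interval -0.22 to 0.35). Clu, a soluble inhibitor of pore assembly, lay between 43.1 and 47.6 FPKM in Pdgfra-cre and between 20.2 and 57.7 FPKM in floxed libraries. Vtn, which encodes vitronectin and acts at the same step, lay between 5.37 and 18.4 FPKM in Pdgfra-cre and between 2.67 and 17.4 FPKM in floxed libraries. Cfp, the gene of the convertase stabilizer properdin, did not exceed 2.43 FPKM, and of 9 complement receptors 7 stayed below 1 FPKM.

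Promoter sequence was at hand for 4 members (C3, Cfd, Cd55 and Cd59a) in RefSeq's GRCm38.p6 table, each from 250 bases before to 50 bases after the annotated start. Both strands were searched for the interferon-stimulated response element core (GAAA, then NN, then GAAA), the STAT-bound GAS motif TTCNNNGAA (its own reverse complement), the C/EBP half-consensus TTGCNNAA, the NF-kB consensus and TATAAA. Of 32851 promoters of this length these were found in 3.44%, 8.30%, 10.8%, 8.46% and 13.6%. The promoters of C3, of C1ra, picked with its higher values in view, and of Cd59a, which was not higher, are shown 5′ to 3′ on the gene's strand, with matches in capitals. C3 is chr17:57228087-57228386 (minus strand), C1ra is chr6:124512371-124512670 (plus strand) and Cd59a is chr2:104095551-104095850 (plus strand).
C3: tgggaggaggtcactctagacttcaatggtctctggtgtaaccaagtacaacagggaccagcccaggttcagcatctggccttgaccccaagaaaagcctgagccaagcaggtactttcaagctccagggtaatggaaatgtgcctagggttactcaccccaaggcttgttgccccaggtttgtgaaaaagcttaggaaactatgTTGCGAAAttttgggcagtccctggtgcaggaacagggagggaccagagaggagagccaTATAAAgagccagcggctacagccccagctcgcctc
C1ra: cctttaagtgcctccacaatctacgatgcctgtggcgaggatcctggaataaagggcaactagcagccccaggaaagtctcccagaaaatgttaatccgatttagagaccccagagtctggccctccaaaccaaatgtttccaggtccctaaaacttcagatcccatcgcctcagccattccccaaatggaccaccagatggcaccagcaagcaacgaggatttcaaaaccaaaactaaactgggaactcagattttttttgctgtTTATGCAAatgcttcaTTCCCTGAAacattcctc
Cd59a: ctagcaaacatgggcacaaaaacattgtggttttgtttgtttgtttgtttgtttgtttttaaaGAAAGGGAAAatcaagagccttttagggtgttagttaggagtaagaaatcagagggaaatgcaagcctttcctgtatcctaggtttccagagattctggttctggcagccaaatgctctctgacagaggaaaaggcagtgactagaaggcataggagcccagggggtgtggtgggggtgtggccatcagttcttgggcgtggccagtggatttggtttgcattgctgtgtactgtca
The C3 window held a C/EBP match that began at position -45 from the annotated start and TATAAA at position 15. The C1ra window held a C/EBP match on the opposite strand at position 17 and a GAS match at position 33, which did not overlap. The Cd59a window held an interferon response core at position -187. Outside the printed windows, C1s1 held a C/EBP match at 1 annotated start (position -242), and the window of its other start held none. C7 held a GAS and a TATA match, and Vtn interferon response, GAS and TATA matches, although C7 and Vtn overlapped between groups. No match lay in the windows of Cd55, Cfd and Cr1l. A match is a run of letters and not a shown binding site, and its absence says nothing about a factor.

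The genes whose profile over the 6 libraries was nearest to a member's were sought among 7880 tested genes with a mean of at least 5 FPKM, by the root mean square difference of centred log2 values. Nearest to C3 were Pi16, a marker of adventitial fibroblasts (0.086 log2 units), Ifi205, an interferon-inducible gene (0.12), and the monocyte chemokine gene Ccl7 (0.13). Pi16 had 267, 425 and 224 FPKM in Pdgfra-cre libraries 13, 23 and 25, against 143, 220 and 108 FPKM in floxed libraries 8, 9 and 43. Nearest to Cfb were the lipopolysaccharide co-receptor gene Cd14 (0.18), Isg15 (0.18) and the MHC class I gene H2-K1 (0.26). Nearest to Cd55 were Csrnp1 (0.093), Pcgf5 (0.096) and Mier3 (0.10).

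Lists of interferon-stimulated and acute phase genes were highest in library 23 as well. The 12 interferon-stimulated genes summed to 1428, 3154 and 890 FPKM in Pdgfra-cre libraries 13, 23 and 25, against 726, 682 and 711 FPKM in floxed libraries 8, 9 and 43. All 12 had log2 fold changes above 0 (median 1.34, and 0.83 without library 23), against 50.3% of all tested genes. On the higher side 11 of them did not overlap between groups, against 8.07% of all tested genes. Irf1 and Cxcl10, the most abundant, averaged 507 ± 194 and 605 ± 487 FPKM in Pdgfra-cre and 305 ± 46.0 and 190 ± 18.1 FPKM in floxed libraries (SD, n = 3 each). The floxed sums were nearly level, but single genes of the list were not, and Isg15 lay between 7.63 and 17.5 FPKM and Irf7 between 15.9 and 26.9 FPKM in floxed libraries. The acute phase and cytokine list, 12 genes, summed to 3245, 5473 and 1604 FPKM in the same Pdgfra-cre libraries and to 1566, 2103 and 914 FPKM in the floxed ones, which overlap. Its most abundant genes, Saa3 and Il6, averaged 1904 ± 1196 and 351 ± 83.8 FPKM in Pdgfra-cre and 628 ± 411 and 267 ± 41.0 FPKM in floxed libraries (SD, n = 3 each). None of the genes in either list passed the adjusted test.

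Markers of other cell types also differed in level between the libraries. The 7 mesothelial markers in the tables summed to 28.7, 82.8 and 16.2 FPKM in Pdgfra-cre libraries 13, 23 and 25, against 3.13, 13.6 and 4.90 FPKM in floxed libraries 8, 9 and 43, and 6 of the 7 were highest in library 23. The defining marker Msln was 8.81, 28.1 and 4.22 FPKM, against 0, 0.804 and 0.166 FPKM, in the same libraries. Of the 5 tested mesothelial markers, 2 (Msln and Upk3b) did not overlap on the higher side, against 8.07% of all tested genes. Wt1, Upk1b and Krt19 overlapped, and Wt1 was highest in floxed library 9 at 3.85 FPKM. The 7 neutrophil markers in the tables summed to 18.2, 180 and 10.8 FPKM in the Pdgfra-cre libraries, against 2.97, 11.4 and 1.36 FPKM in the floxed ones. In library 23 S100a8, S100a9 and Retnlg made up most of the sum, at 94.7, 63.85 and 17.3 FPKM. The rest of the list was low, with Cxcr2 at most 2.55 FPKM and Csf3r, Mmp8 and Ngp below 1 FPKM in every library. Neutrophils carry CD45, which the sort excluded. Ptprc, the gene of CD45, was highest in library 23 at 1.04 FPKM, against 0 to 0.498 FPKM in the other libraries. The 10 macrophage and monocyte markers summed to 38.1 to 70.8 FPKM in Pdgfra-cre and 39.0 to 56.6 FPKM in floxed libraries, with Adgre1, Ccr2 and Fcgr1 below 1 FPKM in all 6. The 8 smooth muscle and pericyte markers summed to 181, 84.6 and 203 FPKM in Pdgfra-cre and 344, 331 and 295 FPKM in floxed libraries. Of the 7 tested, 6 had log2 fold changes below 0 and did not overlap between groups, against 8.29% of all tested genes on the lower side. The exception was the pericyte marker Rgs5 (0.08), which was highest in library 23 at 4.89 FPKM. The part of these cells in the complement values was not tested, and in bulk samples a smaller share of a cell type cannot be told apart from less RNA per cell.

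**Figure D5:**
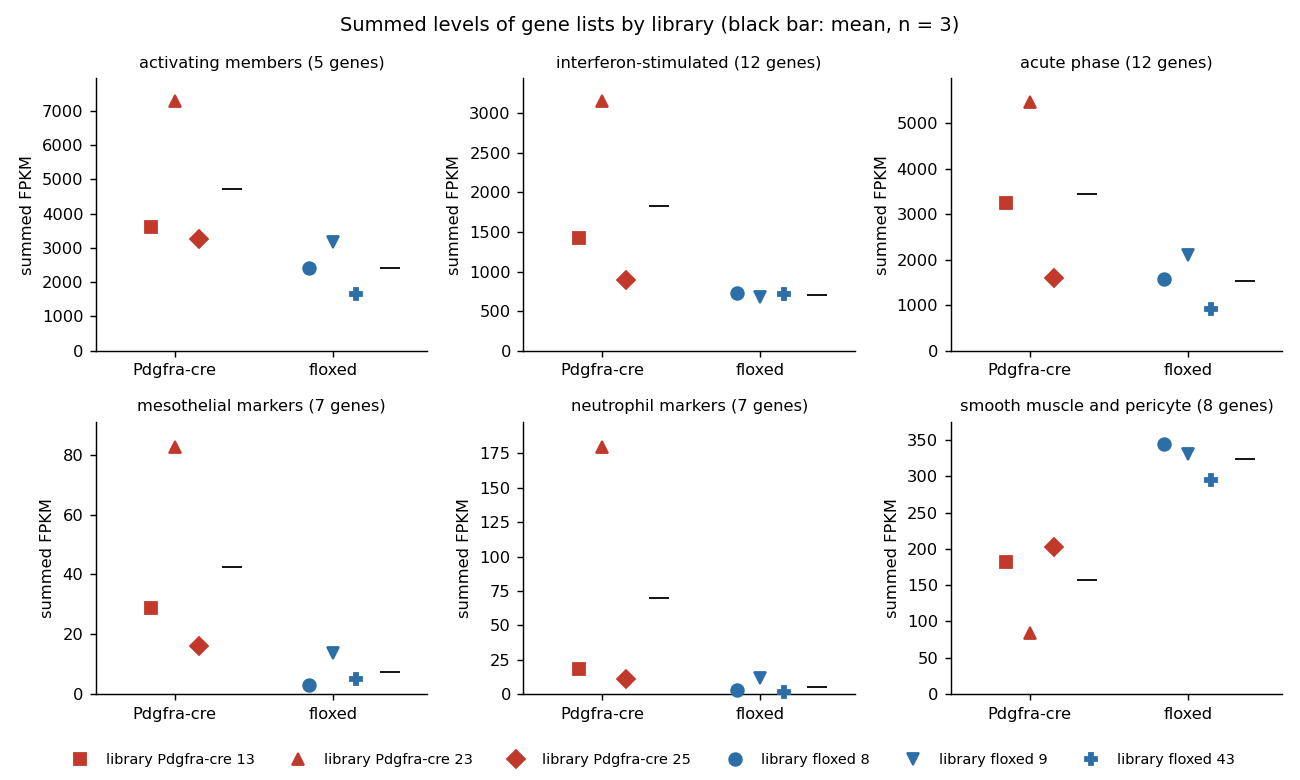
Summed FPKM (y axis, linear from 0) of the activating members and of 5 other gene lists in each library, with Pdgfra-cre left of floxed and the group mean as a black bar. Library 23 is the highest in every panel except smooth muscle and pericyte markers, where it is the lowest at 84.6 FPKM.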

How the data were processed

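The authors deposited gene-level FPKM values, 1 table per library. Per the submitters' processing notes the tools were TopHat2 2.1.1, Bowtie2 2.2.8, SAMtools 0.1.18 and Cuffdiff 2.2.1 on mm10; the annotation and options are not given in the sources used here. Per the labels' protocols, total RNA was turned into full-length cDNA and tagmented, which does not keep strand. FPKM holds no read totals, so no counting interval is given.

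From these values, log2(FPKM + 1) was fitted with limma 3.58.1 in R 4.3.3 with a variance trend, on the 11429 genes that reached 1 FPKM in at least 3 libraries, Pdgfra-cre against floxed, with Benjamini-Hochberg adjustment over all of them and a two-sided threshold of 0.05. The fit was tested on simulated data with independent noise and planted changes larger than the fold change of any member. That test does not cover changes as small as those of the members. Adjusted p-values and SE are from this fit. The members and lists were chosen with earlier results of these data known. Named genes were all members, other complement genes with a mean of at least 10 FPKM, the 3 nearest profiles to C3, Cfb and Cd55, the 2 most abundant genes of the acute phase and interferon lists, and defining markers; further names were picked with their values in view. A complement gene that this rule names is not reported here and is left out of the list counts. Lists also covered fibroblasts, endothelial and epithelial cells, other leukocytes and enteric glia. Locations are from GENCODE M21 (mm10). Alternatives were pseudocounts of 0.1 and 5, no filter, a filter of 5 FPKM, median-of-ratios, TPM and quantile scaling, no variance trend, and leaving out each library.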

Additional observations from a re-analysis of the deposited data

How the results depend on the processing

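No paired analysis was possible because the groups share no mouse numbers. The 7 tested members kept the sign of their log2 fold change and stayed above the adjusted threshold under all 14 alternatives, with adjusted p from 0.144 to 0.992 (limma). The filters and the variance trend do not enter the fold change, so under those settings the sign could not change. Median-of-ratios scaling left the values almost unchanged (0.9959 against 0.9962 for C3), so it adds little as well. With all libraries kept, the fold changes ran from 1.18 to 1.38 for C2, 0.78 to 1.00 for C3, 0.25 to 0.39 for C4b, 1.22 to 1.34 for Cfb, 0.25 to 0.43 for Serping1, 0.43 to 0.53 for Cd55 and -0.52 to -0.31 for Cd59a. Leaving out single libraries moved the number of genes that passed from 0 to between 0 and 31: 31 without Pdgfra-cre library 25, 3 without Pdgfra-cre library 13 and 2 without floxed library 43, with 0 other complement genes among them. The median of the regulating members was 0.25 under quantile normalization and 0.30 to 0.53 with a library left out, and that of the activating members 0.67 to 1.43; the causes were not tested. With 3 libraries a group and no read totals, the precision of each value is limited by the spread between mice.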

Other observations

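Among the other marker lists, the fibroblast list had a median log2 fold change of 0.17 over 8 tested genes, with members that went both ways. Pdgfra, the gene that drives cre, had 155, 121 and 174 FPKM in Pdgfra-cre libraries 13, 23 and 25, against 178, 186 and 199.9 FPKM in floxed libraries 8, 9 and 43. It was lower without overlap, with a log2 fold change of -0.34 ± 0.14 (SE; limma, adjusted p = 0.411), or -0.20 without library 23. Dcn, which encodes the matrix proteoglycan decorin, averaged 10240 ± 882 FPKM in Pdgfra-cre and 8841 ± 274 FPKM in floxed libraries (SD, n = 3 each), higher without overlap (log2 fold change 0.21; limma, adjusted p = 0.613). The 8 endothelial markers summed to 33.3 to 43.7 FPKM in Pdgfra-cre and 30.4 to 36.5 FPKM in floxed libraries, nearly all of it Tek. The 8 epithelial markers summed to 5.70 to 25.5 FPKM and 0.289 to 10.7 FPKM in the same order of groups, the 12 markers of other leukocytes to 7.49 to 13.9 and 6.39 to 7.58 FPKM, and the 6 enteric glia markers to 5.70 to 9.16 and 6.10 to 15.1 FPKM.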
